A study of Homo sapiens with 4 samples.

Results

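The class I antigen presentation genes examined here are 9 genes that a fixed list of symbols selects: HLA-B, HLA-C, HLA-E, HLA-F, B2M, TAP1, TAP2, TAPBP and PSMB9. Every probe set whose platform symbol is exactly one of these was taken, which gave 44 of the 49293 probe sets tested and 9 of the 18132 genes with 1 symbol. They were measured in U87MG cells, an established human glioblastoma line, on PrimeView arrays (Affymetrix, 1-colour, 3' biotin labelling). Of the 4 arrays, 2 hold RNA of cells that received a NeuroD2 expression vector and 2 hold RNA of cells that received the control vector, which the labels name PCMV. Both groups were kept at 0.2% oxygen and harvested 48 hours after transfection, so hypoxia and transfection are common to all arrays. NeuroD2 is a transcription factor that promotes neuronal differentiation, and the arrays ask how its overexpression alters transcripts of glioma cells under low oxygen. Neither the share of transfected cells nor the promoter of the NeuroD2 vector is given in the sources used here, and the cells are 1 line. The labels call the arrays biological replicates without saying how cultures were separated, so p-values measure the spread between these samples.

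Class I molecules show peptides from inside the cell to CD8 T cells and natural killer cells. Proteasomes, including the interferon-inducible form that contains PSMB9, cut proteins into peptides. The TAP1 and TAP2 transporter carries these into the endoplasmic reticulum, where tapasin (TAPBP) holds an empty class I heavy chain paired with beta-2-microglobulin (B2M) until a peptide fits. Tumour cells, gliomas among them, are known to lower parts of this machinery, and interferons raise it. HLA-B and HLA-C are classical heavy chains that present many peptides, while HLA-E and HLA-F are less variable heavy chains read mainly by receptors of natural killer cells.

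NEUROD2 itself, on its brightest probe set, read 7.37 and 7.82 on the NeuroD2 arrays, against 5.46 and 5.35 on the control arrays (log2 values; difference 2.19, adjusted p = 0.0071 by limma). Its other probe sets, both dimmer, differed by -0.21 and -0.07, and neither passed. Medians of the 4 arrays lay between 5.98 and 5.99. Spiked RNAs were not level across the arrays: the hybridisation spikes averaged 10.10 and 10.13 on the NeuroD2 arrays, against 9.56 and 9.90 on the control arrays. The poly-A spikes averaged 7.96 and 8.03 on the NeuroD2 arrays, against 6.95 and 7.98 on control replicates 1 and 2. Among markers of the cell line, the mesenchymal genes VIM and CD44 averaged 14.14 and 12.84, and the other mesenchymal markers from 5.10 (CHI3L1) to 12.59 (TGFBI). The astrocyte gene GFAP averaged 6.21, whereas the astrocyte water channel gene AQP4 averaged 3.30. The other glioma and astrocyte markers averaged from 4.53 (SOX2) to 7.27 (SLC1A3). The leukocyte genes PTPRC and CD14 averaged 3.29 and 3.56, close to the lowest value in the table, 2.65, while CD68 averaged 10.13. The other leukocyte markers averaged from 5.18 (CD3E) to 6.07 (CSF1R), so marker levels did not separate cell types cleanly. Of 6 mesenchymal markers 3 fell (FN1, COL1A1 and TGFBI), and of 4 neuronal markers 1 fell (SNAP25), and their part in the differences below was not tested.

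Upstream sequences of the class I heavy chains and of their partners are shown because HLA-F was higher with NeuroD2 and HLA-B and HLA-C read lower. Of the 9 members, 8 matched an entry among RefSeq promoter windows of GRCh38.p14 (250 bases before to 50 after the start of transcription), and HLA-E did not. The windows of HLA-F (chr6:29723184-29723483, plus strand), HLA-B (chr6:31357130-31357429, minus strand) and HLA-C (chr6:31272043-31272342, minus strand) are given below 5′ to 3′. Capitals mark a match to the interferon-stimulated response element (HLA-F) or to a variant of it (HLA-B and HLA-C). Interferon regulatory factors and the interferon-activated STAT complex bind this element.
HLA-F: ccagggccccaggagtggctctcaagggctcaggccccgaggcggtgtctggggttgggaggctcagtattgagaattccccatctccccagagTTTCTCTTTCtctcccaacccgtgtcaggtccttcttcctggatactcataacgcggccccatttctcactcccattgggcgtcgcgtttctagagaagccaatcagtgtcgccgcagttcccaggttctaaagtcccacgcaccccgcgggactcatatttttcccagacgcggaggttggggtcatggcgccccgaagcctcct
HLA-B: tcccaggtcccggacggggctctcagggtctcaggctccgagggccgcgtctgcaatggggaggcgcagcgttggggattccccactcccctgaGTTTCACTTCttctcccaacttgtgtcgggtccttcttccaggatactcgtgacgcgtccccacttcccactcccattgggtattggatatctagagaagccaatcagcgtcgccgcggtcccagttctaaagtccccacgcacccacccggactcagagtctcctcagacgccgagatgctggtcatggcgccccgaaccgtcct
HLA-C: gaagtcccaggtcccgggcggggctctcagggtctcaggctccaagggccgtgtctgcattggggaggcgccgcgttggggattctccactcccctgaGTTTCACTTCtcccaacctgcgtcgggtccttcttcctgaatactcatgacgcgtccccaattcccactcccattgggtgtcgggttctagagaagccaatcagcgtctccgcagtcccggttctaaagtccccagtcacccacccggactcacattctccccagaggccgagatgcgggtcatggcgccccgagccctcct

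In these windows the HLA-B and HLA-C sequences were identical in 88.5% of aligned positions, and HLA-F matched HLA-B in 79.7% and HLA-C in 78.9%. The element was searched on both strands as a pair of GAAA cores with 2 free bases between them, which 3.57% of all 35116 RefSeq windows of this length hold. HLA-F held 1 match, at -156 to -147 relative to its start. HLA-B (-156 to -147) and HLA-C (-152 to -143) held a variant whose first core lacks its last base. Its search also fixed the base just before the second core as T and the base just after it as C. This variant, with its fixed letters, was chosen after the windows were read. It occurred in 0.333% of all windows. The added fixed letters make a match rarer, so this share cannot be compared directly with the 3.57% of the paired cores. The palindromic kappa-B sequence of the class I enhancer A was found in the HLA-B window, in no other window of the members and in 0.0313% of all windows. The core of the cyclic AMP response element, TGACG, was found in HLA-B and HLA-C, among 5 of the 9 member windows, and not in HLA-F, against 24.6% of all windows. The NeuroD-type E-boxes CAGATG and CAGCTG, searched on both strands, were found in 0 of the 9 member windows, against 14.7% and 17.9% of all windows. These matches describe letters within the windows and do not show binding.

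Matches to the paired GAAA cores also lay upstream of the transporter, tapasin and beta-2-microglobulin genes. Short stretches of 30 bases around them are given below 5′ to 3′ for TAP1 (chr6:32853815-32853844, minus strand), TAP2 (chr6:32838780-32838809, minus strand), TAPBP (chr6:33314070-33314099, minus strand) and B2M (chr15:44711372-44711401, plus strand), with the matches in capitals. Overlapping matches run together as 1 block of capitals.
TAP1: ggccgcTTTCGATTTCGCTTTCccctaaat
TAP2: ggctggggaagcGAAAGCGAAAgctgcccg
TAPBP: gGAAAGTGAAAGTGAAAggaggaagaggag
B2M: aGAAAAGGAAACTGAAAacgggaaagtccc

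PSMB9 had no match to this element in its own window. TAP1 and PSMB9 are neighbours on chromosome 6 and are transcribed away from each other, and their RefSeq starts lie 488 bases apart. Of the 9 members, 8 lie on chromosome 6, and B2M lies on chromosome 15.

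Among the 9 genes, each read on its brightest probe set, HLA-F rose and the other 8 did not pass the test. On all probe sets, 2 of 44 passed, both of HLA-F and both higher with NeuroD2. For the background, 2.87% of all probe sets passed in either direction with 1.26% higher and 1.61% lower, and on brightest probe sets 3.09% of all genes passed in either direction and 1.24% as higher. The groups did not overlap on the brightest probe set of any of the 9 genes, with 3 genes higher (HLA-F, HLA-E and TAP2) and 6 lower (HLA-B, HLA-C, B2M, TAP1, TAPBP and PSMB9). This compares with non-overlap in 50.8% of all genes, 24.2% higher and 26.6% lower. Over the 44 probe sets, 13 were higher and 15 lower without overlap, against 49.3% of all probe sets in either direction. An unadjusted p below 0.05 was reached by 12 of the 44 probe sets and 6 of the 9 genes, against 19.7% of all probe sets and 20.1% of all genes. The median difference of the 9 genes was -0.12 on the log2 scale, while the median absolute difference was 0.26, against 0.11 over all genes. In bulk RNA, fewer cells with a transcript and less of it per cell cannot be told apart.

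**Figure D1:**
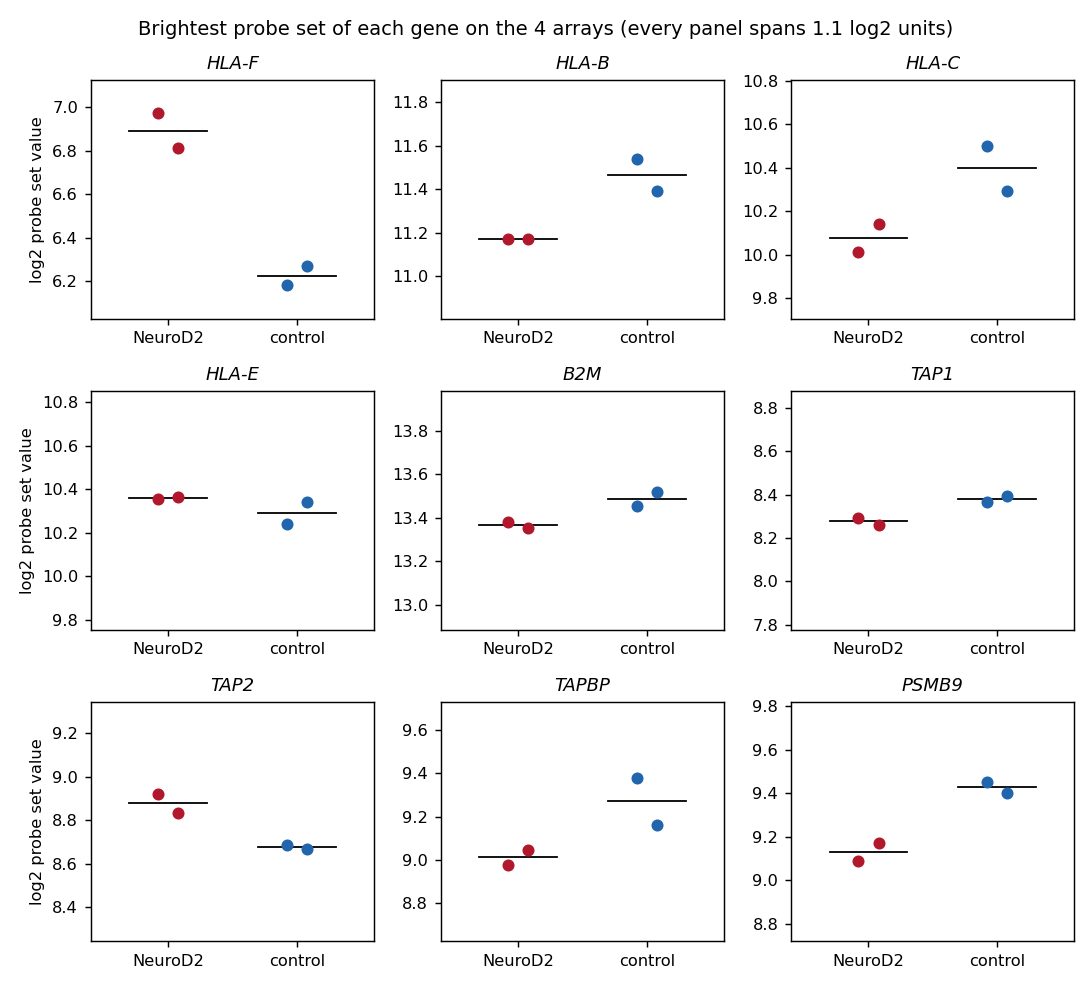
Log2 value of the brightest probe set of each of the 9 genes on the 2 NeuroD2 arrays (red, left) and the 2 control arrays (blue, right); each point is an array, bars are group means, and every panel has its own axis of the same height. HLA-F shows the widest gap, 0.67 log2 units, and HLA-E the narrowest, 0.07.

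HLA-F, a heavy chain known to be displayed also without peptide on activated cells, was higher in cells with the NeuroD2 vector. On its brightest probe set it read 6.97 and 6.81 on the NeuroD2 arrays, against 6.18 and 6.27 on the control arrays (6.89 ± 0.11 against 6.23 ± 0.06; SD, n = 2 each). Both NeuroD2 values lay above both control values, and the gap was larger than the spread within either group. HLA-F thus rose by 0.67 log2 units or 1.59-fold (95% interval in log2 units 0.44 to 0.89, standard error 0.09, adjusted p = 0.030 by limma). The third-brightest probe set gave a like result, 6.42 and 6.28 on the NeuroD2 arrays against 5.82 and 5.70 on the control arrays (difference 0.59, adjusted p = 0.039 by limma). On the second-brightest, the values were 6.60 and 6.67 on the NeuroD2 arrays against 6.01 and 6.25 on the control arrays, and the difference of 0.51 did not pass (adjusted p = 0.070).

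The remaining 7 HLA-F probe sets were dimmer, between 3.34 and 5.23 on every array, and none passed. The fourth-brightest read 5.23 and 5.10 on the NeuroD2 arrays and 4.77 and 5.05 on the control arrays (difference 0.25). From the fifth to the tenth, differences ran from -0.26 to 0.20, 3 of them below 0, and the groups overlapped on 5 of these 6. HLA-F is thus a call of the brighter probe sets. With the mean of all 10 probe sets the difference was 0.19 and did not pass (adjusted p = 0.189 by limma). Of the 10, 5 carry the suffix x_at, which marks probes that can also match other transcripts, and both probe sets that passed are among them. The second-brightest, of the a_at kind with probes for transcripts of 1 gene, did not pass.

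The HLA-F call did not pass when any 1 array was left out: differences then ran from 0.59 to 0.75, with adjusted p-values from limma of 0.155 to 0.233. Hybridisation spikes were 0.39 higher on the NeuroD2 arrays as well, and their part in the HLA-F difference was not tested.

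**Figure D2:**
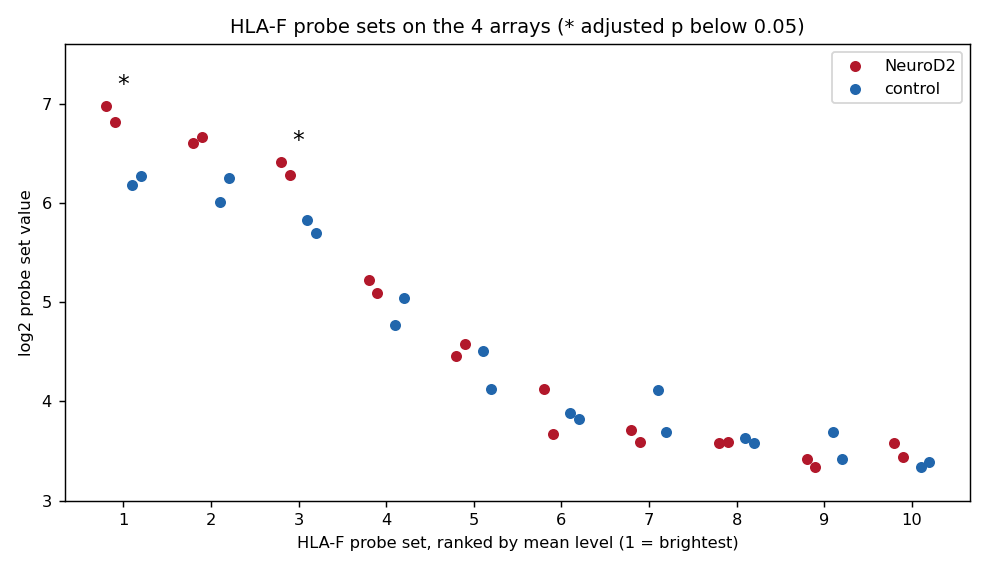
Log2 value of the 10 HLA-F probe sets, ranked from the brightest (1) to the dimmest (10), on the 2 NeuroD2 arrays (red, left of each pair) and the 2 control arrays (blue, right); each point is an array and a star marks an adjusted p below 0.05. Probe sets 1 to 3 separate the groups by 0.67, 0.51 and 0.59 log2 units, and below them the groups mostly overlap.

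The classical heavy chains read lower with NeuroD2 but did not pass. HLA-B, on its brightest probe set, read 11.17 and 11.17 on the NeuroD2 arrays, against 11.54 and 11.39 on the control arrays. Both control values were higher, and the difference was -0.30 (95% interval -0.51 to -0.08, adjusted p = 0.141 by limma). A second bright HLA-B probe set differed by -0.30 as well (adjusted p = 0.133), and the third, at 4.50 to 4.54 on every array, by -0.01. For HLA-C the brightest probe set read 10.01 and 10.14 on the NeuroD2 arrays, against 10.50 and 10.30 on the control arrays. Its difference was -0.32 (95% interval -0.58 to -0.07, adjusted p = 0.168), and the groups did not overlap.

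On the second-brightest HLA-C probe set, values were 9.05 and 8.999 on the NeuroD2 arrays, against 9.33 and 9.29 on the control arrays (difference -0.29, adjusted p = 0.121 by limma). The third was at 4.54 to 4.87 on all arrays, with overlapping groups. HLA-B and HLA-C were thus lower on 2 probe sets each, and in every case the control array that read higher was replicate 1. Of these 6 probe sets, 5 are of the x_at kind. As the genes are near copies, HLA-B and HLA-C signals may be shared and are not independent readings. With an intensity trend in the variance prior or without dim probe sets, HLA-B passed (lowest adjusted p = 0.023), and on the second probe set HLA-C passed as well (lowest adjusted p = 0.035).

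HLA-E, the heavy chain that offers leader peptides of other class I chains to the receptor NKG2A, had one of the smallest differences. Its brightest probe set read 10.36 and 10.37 on the NeuroD2 arrays, against 10.24 and 10.34 on the control arrays. The difference of 0.07 did not pass (95% interval -0.13 to 0.27, adjusted p = 0.706 by limma). In all 6 HLA-E probe sets differences ran from -0.19 to 0.10, with 5 above 0, and none had an unadjusted p below 0.05. The negative one is of the s_at kind and read 9.50 and 9.47 on the NeuroD2 arrays against 9.74 and 9.60 on the control arrays. All 6 are of the x_at kind (4) or the s_at kind (2), whose probes can match more than 1 gene.

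B2M, the light chain that every class I molecule needs, read 13.38 and 13.35 on the NeuroD2 arrays, against 13.45 and 13.52 on the control arrays. Both NeuroD2 values lay below both control values, and the difference of -0.12 did not pass (adjusted p = 0.463 by limma). All 8 B2M probe sets gave negative differences, from -0.21 to -0.09, and 5 did not overlap between groups, against 24.3% of all probe sets that were lower without overlap. These 8 are not 8 readings: a pair of them holds identical values on all arrays, and all read the same gene. Control replicate 2 was the highest array on each of the 8, and without it 3 of the 8 differences turned positive, by at most 0.02.

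The transporter subunits, which work as a pair, went opposite ways by small amounts. TAP2 read 8.92 and 8.83 on the NeuroD2 arrays, against 8.69 and 8.67 on the control arrays. All 4 TAP2 probe sets were higher without overlap, by 0.15 to 0.30, against 25.0% of all probe sets that were higher without overlap. None of the 4 passed over all probe sets (lowest adjusted p = 0.164 by limma), and 3 had an unadjusted p below 0.05. TAP1 read 8.29 and 8.26 on the NeuroD2 arrays, against 8.36 and 8.39 on the control arrays. Both of its probe sets were lower without overlap, by 0.10 and 0.09, and neither passed (adjusted p = 0.530 and 0.644). The difference between the subunits was not tested.

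Tapasin, which bridges the transporter and the heavy chain, gave no single direction. On the brightest of 5 TAPBP probe sets it read 8.98 and 9.05 on the NeuroD2 arrays, against 9.38 and 9.16 on the control arrays (difference -0.26, adjusted p = 0.233 by limma). The other 4 ran from -0.05 to 0.11, with 2 above 0 and 2 below. With the mean of the 5 probe sets the difference was -0.04.

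PSMB9, the interferon-inducible catalytic proteasome subunit, read 9.09 and 9.17 on the NeuroD2 arrays, against 9.45 and 9.40 on the control arrays. Both NeuroD2 arrays lay below both control arrays, by more than the spread within either group. The difference was -0.30 (95% interval -0.50 to -0.10, 1.23-fold lower, adjusted p = 0.119 by limma). Its other probe sets differed by -0.13 and -0.24 and overlapped between groups. PSMB9 passed with an intensity trend or without dim probe sets (lowest adjusted p = 0.032), but not in the other alternatives.

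**Figure D3:**
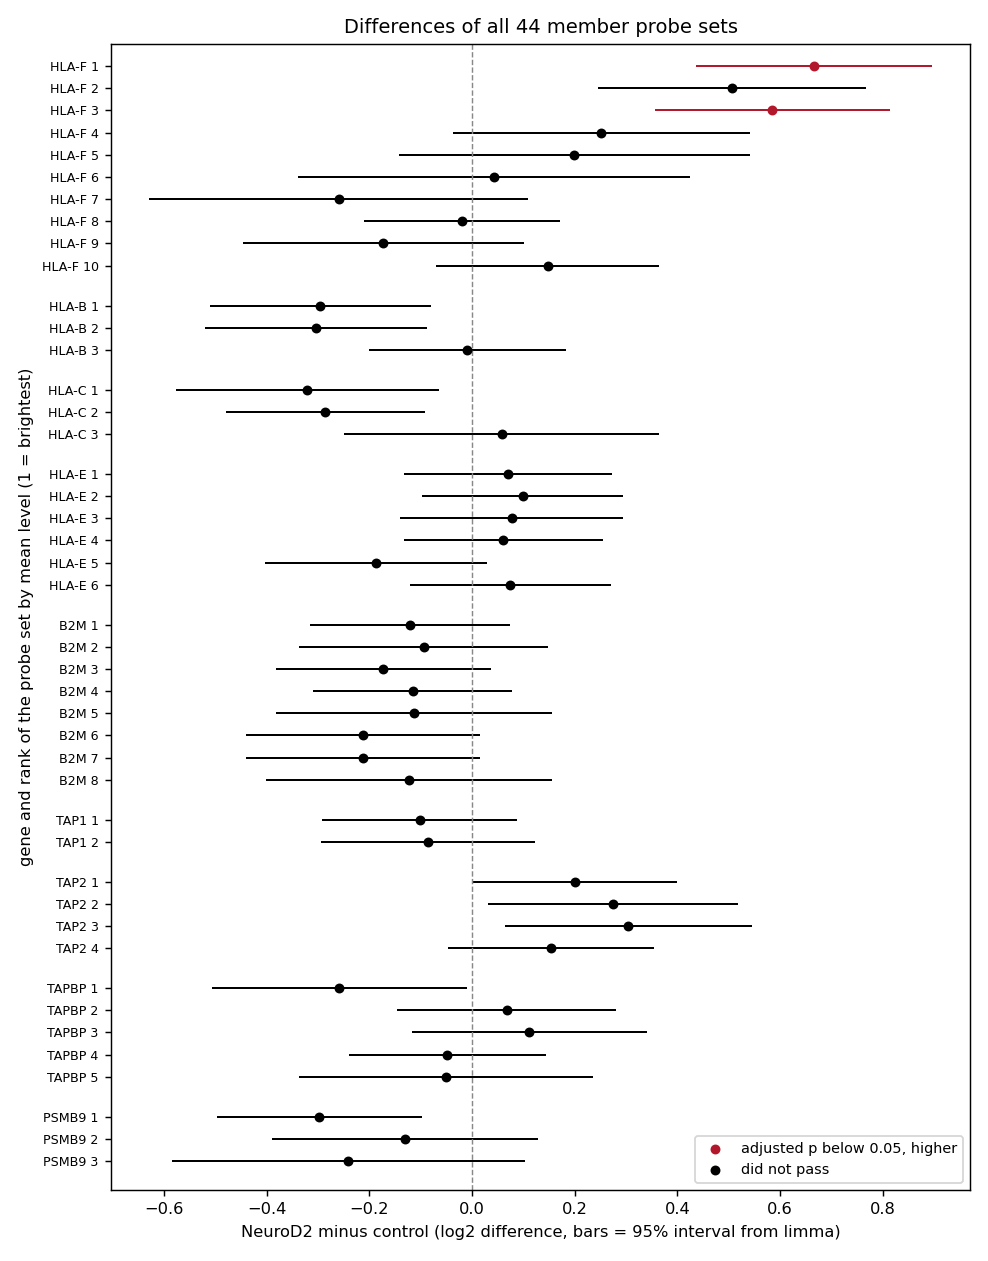
Difference, NeuroD2 minus control in log2 units, of each of the 44 probe sets with its 95% interval from limma, grouped by gene and ranked from the brightest probe set (1) downward; red marks an adjusted p below 0.05. The HLA-F probe sets 1 and 3 are the ones that passed, TAP2 lies right of 0 on all 4, and B2M lies left of 0 on all 8.

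The wider pathway was read from lists of genes around the class I machinery, which hold 95 genes outside the 9, of which 88 had a probe set with 1 symbol and the other 7 were not analysed here. Each gene was counted on its brightest probe set. In all, 8 of the 88 passed, 1 higher and 7 lower, against 3.09% of all genes in either direction, 1.24% higher and 1.85% lower. TAPBPL, MR1 and CD74, named after their values were seen, did not pass there. Each of them had 1 dimmer probe set that passed as lower, as did 1.61% of all probe sets. None of the 13 measured subunits of the constitutive 20S proteasome passed in limma, and none had an unadjusted p below 0.05. Their differences ran from -0.08 (PSMB1 and PSMB3) to 0.12 (PSMB5), with PSMB7 at 0.07 and a median of 0.04. The inducible subunit PSMB8 read 9.88 and 9.99 on the NeuroD2 arrays, against 10.31 and 10.18 on the control arrays (difference -0.31, adjusted p = 0.137 by limma).

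PSMB8 and PSMB9 thus had like differences, and neither passed. The inducible subunit PSMB10, named after its value was seen, did not share them: it differed by 0.04 with overlapping groups (adjusted p = 0.858 by limma). In the list of immunoproteasome and proteasome activator genes, 0 of 7 passed by limma and 4 had an unadjusted p below 0.05, which 20.1% of all genes reached. The list's median difference was 0.04. PSME2, a subunit of the interferon-inducible PA28 activator, differed by -0.21. The nuclear activators PSME3 and PSME4 differed by 0.34 and 0.26, but averaged over all probe sets of each gene they differed by -0.02 and 0.07. Of 9 measured peptide loading and trimming genes, 0 passed by limma and 1 had an unadjusted p below 0.05, the trimming peptidase gene ERAP2 (-0.26). The chaperone gene CANX (0.16), the peptidase gene TPP2 (0.13) and the glycoprotein folding sensor gene UGGT1 (-0.11) followed, and the list's median was 0.01.

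Of 14 class I-like molecules and ligands of the natural killer receptor NKG2D, 1 fell and 13 did not pass, with a median of -0.08. MICB, a stress-induced NKG2D ligand, fell to 8.53 and 8.59 on the NeuroD2 arrays, against 9.01 and 9.13 on the control arrays (difference -0.51, adjusted p = 0.043 by limma). All 4 MICB probe sets were lower, and 1 of them passed; averaged over the 4, MICB fell by 0.32. FCGRT, the neonatal Fc receptor gene (-0.44, adjusted p = 0.052), the iron regulator gene HFE (-0.43, adjusted p = 0.106) and the NKG2D ligand gene ULBP3 (-0.34, adjusted p = 0.213) did not pass, and averaged over all probe sets they differed by -0.23, -0.16 and -0.22. HLA-G, a further non-classical class I gene, read 5.30 and 5.56 on the NeuroD2 arrays, against 5.59 and 5.50 on the control arrays, with overlapping groups.

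Among 26 measured genes of class I transactivation and interferon signalling, 1 rose, 1 fell and 24 did not pass, with a median of -0.04. IRF9, the DNA-binding subunit of the interferon-activated STAT complex, fell to 8.20 and 8.22 on the NeuroD2 arrays, against 8.70 and 8.64 on the control arrays (difference -0.46, adjusted p = 0.046 by limma). SOCS3, a feedback inhibitor of cytokine signalling, rose to 7.92 and 7.90 on the NeuroD2 arrays, against 7.47 and 7.48 on the control arrays (difference 0.44, adjusted p = 0.047). IRF9 did not pass when averaged over its 4 probe sets (-0.29, adjusted p = 0.067 by limma), and with a robust variance prior neither IRF9 nor SOCS3 passed (adjusted p = 0.051 for both). SOCS1, which inhibits interferon signalling, differed by 0.56 (adjusted p = 0.054), and RFX5, whose product binds the X box of class I and class II promoters, by -0.42 (adjusted p = 0.052). Averaged over their probe sets, SOCS1 (0.39, adjusted p = 0.029 by limma), RFX5 (-0.44, adjusted p = 0.019) and SOCS3 (0.50, adjusted p = 0.015) passed. NLRC5, the class I transactivator gene, named after its value was seen, differed by -0.07 with overlapping groups. Of 6 negative regulators of class I, 0 passed by limma and 4 had an unadjusted p below 0.05, which 20.1% of all genes reached. They were the Polycomb genes EZH2 (-0.38, and -0.19 averaged over its probe sets) and EED (-0.24) and the ubiquitin ligase genes MARCHF9 (-0.38) and MARCHF4 (0.25). The Polycomb gene SUZ12, named after its value was seen, differed by 0.10 with overlapping groups.

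Of 12 measured class II genes, whose products present peptides to CD4 T cells, 5 fell and 7 did not pass. Their median difference was -0.45, while 1.85% of all genes passed as lower and the median over all genes was close to 0. HLA-DMA, which helps to load peptides on class II molecules, fell to 6.25 and 6.28 on the NeuroD2 arrays, against 7.47 and 7.35 on the control arrays (difference -1.14, standard error 0.08, adjusted p = 0.0075 by limma). HLA-DRA, the alpha chain of HLA-DR, fell to 8.52 and 8.43 on the NeuroD2 arrays, against 9.24 and 9.26 on the control arrays (difference -0.78, adjusted p = 0.016). In both genes the gap between groups was several times the distance between the arrays of a group.

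HLA-DQB1 fell as well, to 6.63 and 6.63 on the NeuroD2 arrays, against 7.59 and 7.23 on the control arrays (difference -0.78, adjusted p = 0.043 by limma). Averaged over all 8 probe sets the HLA-DQB1 difference was -0.12 and did not pass. HLA-DMB, the partner of HLA-DMA, fell by 0.55 (adjusted p = 0.035), and HLA-DPA1, named after its value was seen, fell by 0.51 (adjusted p = 0.048). All 4 HLA-DPA1 probe sets passed as lower, as did both of HLA-DMA. With a robust variance prior HLA-DPA1 did not pass on its brightest probe set, while HLA-DMA, HLA-DMB, HLA-DQB1 and HLA-DRA did. Averaged over all 3 probe sets HLA-DRA fell by 0.46. CTSS, the protease that trims the class II invariant chain, also named after its value was seen, differed by 0.45 in the other direction (adjusted p = 0.053).

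Class II genes are mainly active in antigen-presenting leukocytes, and of the 8 leukocyte markers measured none passed. Their mean level was 5.66 and 5.61 on the NeuroD2 arrays, against 5.67 and 5.47 on the control arrays, with PTPRC between 2.95 and 3.53 on all arrays. PTPRC differed by 0.40 without overlap (adjusted p = 0.134 by limma), and the other markers by -0.21 (CD3E) to 0.13 (CSF1R). Any part of leukocyte transcripts in the class II differences was not tested. None of the 8 list genes that passed did so when any 1 array was left out. The class II genes are near copies of each other in part, and 4 of the 5 calls were read on s_at or x_at probe sets, whose probes can match more than 1 gene; HLA-DMA was read on an a_at probe set, whose probes match transcripts of 1 gene.

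**Figure D4:**
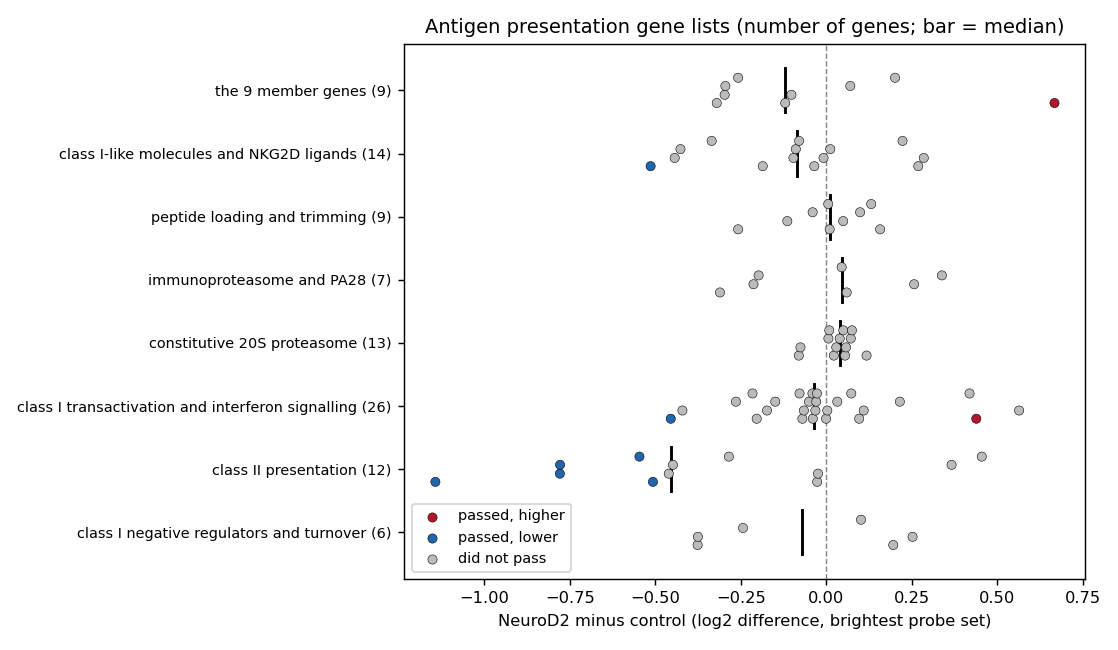
Log2 difference, NeuroD2 minus control, of the 9 genes and of 7 lists of related genes, each point a gene on its brightest probe set, with the number of genes in brackets and a bar at the median; red and blue mark genes that passed as higher and lower. HLA-F stands apart at 0.67 among the 9 genes, the constitutive proteasome lies between -0.08 and 0.12, and the class II list has a median of -0.45.

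**Figure D5:**
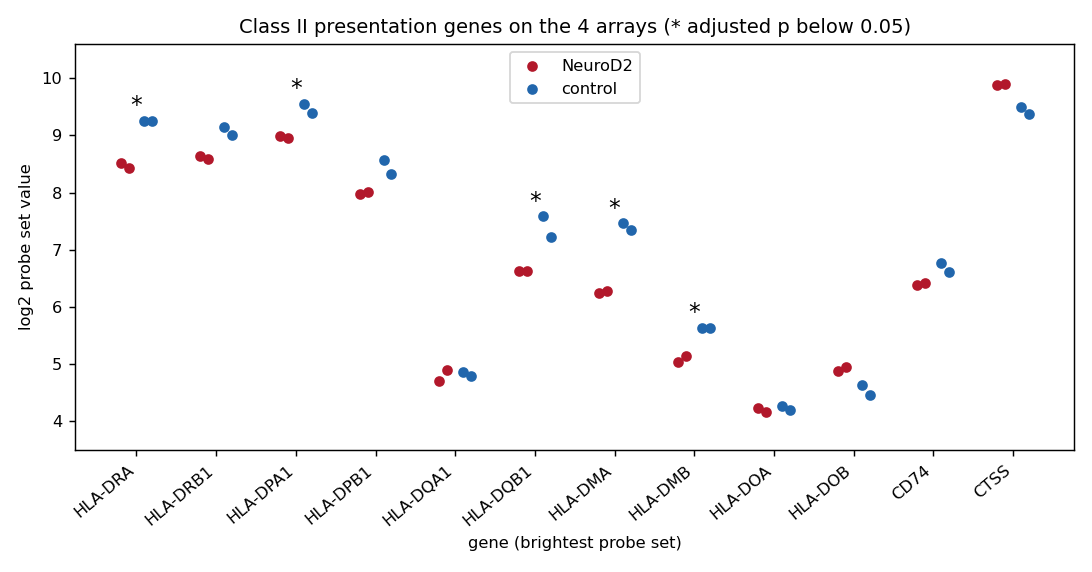
Log2 value of the brightest probe set of 12 class II presentation genes on the 2 NeuroD2 arrays (red, left of each pair) and the 2 control arrays (blue, right); each point is an array and a star marks an adjusted p below 0.05. HLA-DMA shows the widest gap, 1.14 log2 units, and HLA-DQA1 and HLA-DOA, picked after their values were seen and below 5 on every array, overlap between groups.

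The profiles of the 9 genes did not share a direction, so their mean profile was nearly flat, at -0.02 and -0.03 on the NeuroD2 arrays and 0.04 and 0.01 on the control arrays around each gene's own mean. The 5 genes outside the lists nearest to it by Euclidean distance over the 4 arrays were IL17RA, DERL2, SPATA6, PLEC and HTR3B, with differences from -0.06 to -0.04, none of which passed.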

How the data were processed

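RNA of 4 U87MG samples was measured on PrimeView arrays. The values are the authors' deposited table of 49395 probe sets, taken as log2 from their range (2.65 to 14.29) with near-equal array medians; whether and how they were normalized before deposit is not known. For software, background correction and probe summary, nothing is stated in the labels read here. Without detection calls no gene is called absent, and no scan batch was tested. The number of arrays limits the precision.

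Probe sets were named through the platform annotation: 44988 had 1 symbol, 1832 several and 2473 none, and 102 controls were left out. The 1 probe set annotated to HLA-B and HLA-C together was not used as a member. A gene stands for its probe set with the highest mean, and every other member probe set is given beside it. All 49293 probe sets were fitted at once with limma 3.58.1 in R 4.3.3 (lmFit and eBayes, no trend, a single group term, two-sided, residual degrees of freedom 2, prior 3.87). Benjamini-Hochberg adjustment ran over all probe sets with a threshold of 0.05, and intervals are 95% intervals from limma. With 2 arrays in each group, the smallest two-sided p of an exact permutation test is 0.333, and it was not used. The fit was tested on simulated data.

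The text names all members and, of each list, up to 4 genes with the largest absolute difference, and says where a gene was added afterwards. The members and lists were chosen with earlier results of these data known. Other settings tried were a block for the replicate number, each array left out, quantile normalization, median centring, a variance prior with an intensity trend, a robust one, a filter that keeps probe sets at or above the median mean, a fit of brightest probe sets alone, and averaging all probe sets of a gene.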

Additional observations from a re-analysis of the deposited data

Results flagged for a closer look

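The hybridisation spike probe sets, which enter no comparison of genes, read 0.39 log2 units higher on the NeuroD2 arrays than on the control arrays, with all 18 of them higher on both NeuroD2 arrays (means of 10.10 and 10.13 against 9.56 and 9.90). They appear here as a signal in data that the comparisons did not use.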

How the results depend on the processing

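The counts depended on the variance model and on every array. With the replicate number as a block, 90 probe sets, 0 of the 44 probe sets, 0 of the 9 genes and 0 list genes passed in limma, against 1416, 2, 1 and 8 (at an unadjusted p below 0.05, 9539 probe sets and 4 of the 9 genes). Leaving out 1 array gave 0 to 45 probe sets (0 without either control array, 45 without either NeuroD2 array), and 0 of the 44 probe sets, 0 of the 9 genes and 0 list genes, with 5277 to 10614 probe sets and 1 to 5 of the 9 genes at an unadjusted p below 0.05. The lone array of a group was then assumed to vary like the other group. With an intensity trend 4041 probe sets, 7 of the 44, 3 genes and 21 list genes passed, and without dim probe sets 4086, 7, 3 and 18. A fit of brightest probe sets alone gave 864, 1 and 14 for all, member probe sets and list genes, and a robust prior 5 list genes. Averaging all probe sets of a gene gave 0 of the 9 genes and 11 list genes. The median difference of the 9 genes, -0.12, ran from -0.15 to -0.089 when 1 array was left out and was -0.094 with the mean of probe sets. Quantile normalization and median centring kept HLA-F as the 1 gene that passed. Same-numbered arrays deviated together only weakly (r = 0.08 over probe sets), and the labels do not say what a number marks, so the numbers were not taken as pairs, and the cause of the change was not tested.

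Differences that turned sign when 1 array was left out ran from -0.12 (B2M) to 0.13 (TPP2) in the main fit. With 1 array left out they reached as far as -0.26 (B2M) and 0.30 (TPP2). Their ranges were -0.20 to 0.011, -0.25 to 0.020 and -0.26 to 0.020 for 3 B2M probe sets, -0.031 to 0.013 for the dimmest of HLA-B, -0.11 to 0.22 for the dimmest of HLA-C, -0.040 to 0.0026 and -0.19 to 0.27 for dim HLA-F probe sets and -0.20 to 0.10 for the dimmest of TAPBP. They were -0.25 to 0.014 for HLA-G, -0.042 to 0.30 for TPP2, -0.0015 to 0.24 for PSMB5 and -0.0060 to 0.16 for PSMB7. With the mean of probe sets PSME3 turned to -0.020.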
